A study of Mus musculus with 2 samples.

Results

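Collagen chain genes were taken as every gene whose symbol in the feature table reads Col, a number, the letter a and a second number. The rule found 42 of 32883 genes, of which 10 encode fibrillar chains, 8 encode chains of basement membrane collagens and 24 encode other collagens. It uses symbols and no measured value. Col1a2, Col6a3 and Col21a1 were not analysed here, and the collagen totals and shares below do not include them.

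The study profiled dissociated lung cells of wild-type mice by droplet single-cell sequencing (10x Genomics). It compared a sham operation with hepatic ischemia-reperfusion (HIR), a stop and return of blood flow to the liver, with lungs taken 6 h after HIR. Each group was 1 library, no age is given, and the labels do not say how many animals a library holds. Both lungs were digested with collagenase and elastase, so the data describe transcripts of released cells and not collagen protein.

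Collagens are built from chains wound into a triple helix. Fibrillar collagens I, III and V form the load-bearing fibers around vessels, airways and alveolar septa, and are made mainly by fibroblasts and smooth muscle. Type IV collagens form the sheet under endothelium and epithelium, with Col4a1 and Col4a2 in nearly all such sheets and Col4a3, Col4a4 and Col4a5 in the alveolar one, while collagens XV and XVIII sit at the border between that sheet and the fibrils. Type VI makes beaded filaments, and collagens XII, XIV and XVI bind to fibril surfaces.

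No replicates exist, so no test was run. Levels are UMIs (unique molecular identifiers, which count captured transcripts) per 1000000 UMIs of the cells concerned (CPM), and since a transcript counts 1 UMI whatever its length, they were not scaled by length. The ratio of HIR over sham has an exact 95% interval that covers counting error only, and differences between animals or preparations cannot be told apart from an effect of HIR. The sham library held 59566745 UMIs over 10719 barcodes and the HIR library 50801778 UMIs over 9499 barcodes, and 24 barcodes occurred in both. All genes carry rat Ensembl identifiers although the labels name the mouse, so symbols were used as the files give them.

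Cells were sorted into gates by markers of lung cell types, none of them a collagen. A gate is a range of a score per cell and not a proven cell type, and its name here means that the cells resembled that type: 1102 sham and 845 HIR cells lay near the border of 2 gates. Of the stromal gates adventitial fibroblasts were the least separated, with 48.3% of 147 sham cells and 40.8% of 49 HIR cells near a border. Among alveolar fibroblasts the share near a border was 10.8% of 333 sham cells and 33.3% of 96 HIR cells. A stromal gate that shared Wnt11, Lum and Dcn held 913 sham and 797 HIR cells, the smooth muscle or myofibroblast gate 578 and 433, and the pericyte gate 120 and 42. The summed markers of the 5 stromal, 2 capillary and 2 alveolar epithelial gates were highest in their own gate, with 1 exception: those of the Wnt11 and Lum stroma were at 5494 CPM in sham and 5365 CPM in HIR there, and at 7816 and 7809 CPM in adventitial fibroblasts. Pericyte markers in pericytes summed to 15116 CPM in sham and 10459 CPM in HIR. Neutrophil markers, whose median share was 0 in the 10 sham gates examined, reached a median of 0.0290% of the UMIs of HIR alveolar fibroblasts and 0.0430% of those of HIR general capillary cells. Of immune markers in the 5 stromal gates, the dendritic cell list had higher medians in HIR, at 0.887% in sham and 1.39% in HIR in the Wnt11 and Lum stroma, 0.525% and 0.893% in the smooth muscle or myofibroblast gate, 0.168% and 0.455% in alveolar fibroblasts, 0.235% and 0.592% in adventitial fibroblasts and 0.341% and 0.714% in pericytes. Its sum in the Wnt11 and Lum stroma, 7997.5 and 12478 CPM, was above that of the gate's own markers, and nearly all of it was Cst3, a protease inhibitor that many cell types express, at 7957 and 12438 CPM. The defining dendritic cell markers Flt3, Xcr1, Clec9a and Cd209a were at 0 in both libraries there. The 10 markers other than Cst3 summed to 40.1 and 40.9 CPM in that stroma, and to at most 125 CPM in the stromal gates, in HIR pericytes, whose Cst3 was at 7327 CPM. The interstitial macrophage list in alveolar fibroblasts was at 7308 and 10456 CPM, in HIR above the gate's own markers at 6711 CPM, and of this Apoe, which fibroblasts can express too, gave 7252 and 10412 CPM, and the other 9 markers 55.4 and 44.4 CPM. The part of these markers in the results below was not tested.

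Collagen transcripts came mostly from stroma. The 5 stromal gates held 74.7% of the collagen UMIs of all kept cells in sham and 65.8% in HIR. The Wnt11 and Lum stroma alone gave 35.5% and 39.7%. Most of that came from the 154 sham and 133 HIR cells of the gate that fell into a single cluster. These cells held 54266 of 86376 collagen UMIs of the gate in sham and 30240 of 46838 in HIR. The cluster scored highest for the markers of the Wnt11 and Lum stroma, at a mean of 0.450, with adventitial fibroblasts next at 0.417. That gap was near the 0.03 needed for an assignment. The cluster also held 114 sham and 38 HIR adventitial fibroblasts. Alveolar fibroblasts gave 8.33% in sham and 3.30% in HIR, and adventitial fibroblasts 15.2% and 8.28%, both with fewer cells in HIR. Basement membrane chains were spread more widely: general capillary endothelium held 34.9% of their UMIs in sham and 34.8% in HIR, and the 5 stromal gates together 33.9% and 27.2%. A UMI was found for 39 of the 42 genes in sham and 40 in HIR, but 16 genes stayed below 20 CPM in every gate, among them the cartilage chains Col2a1, Col9a1, Col10a1 and Col11a2.

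**Figure D1:**
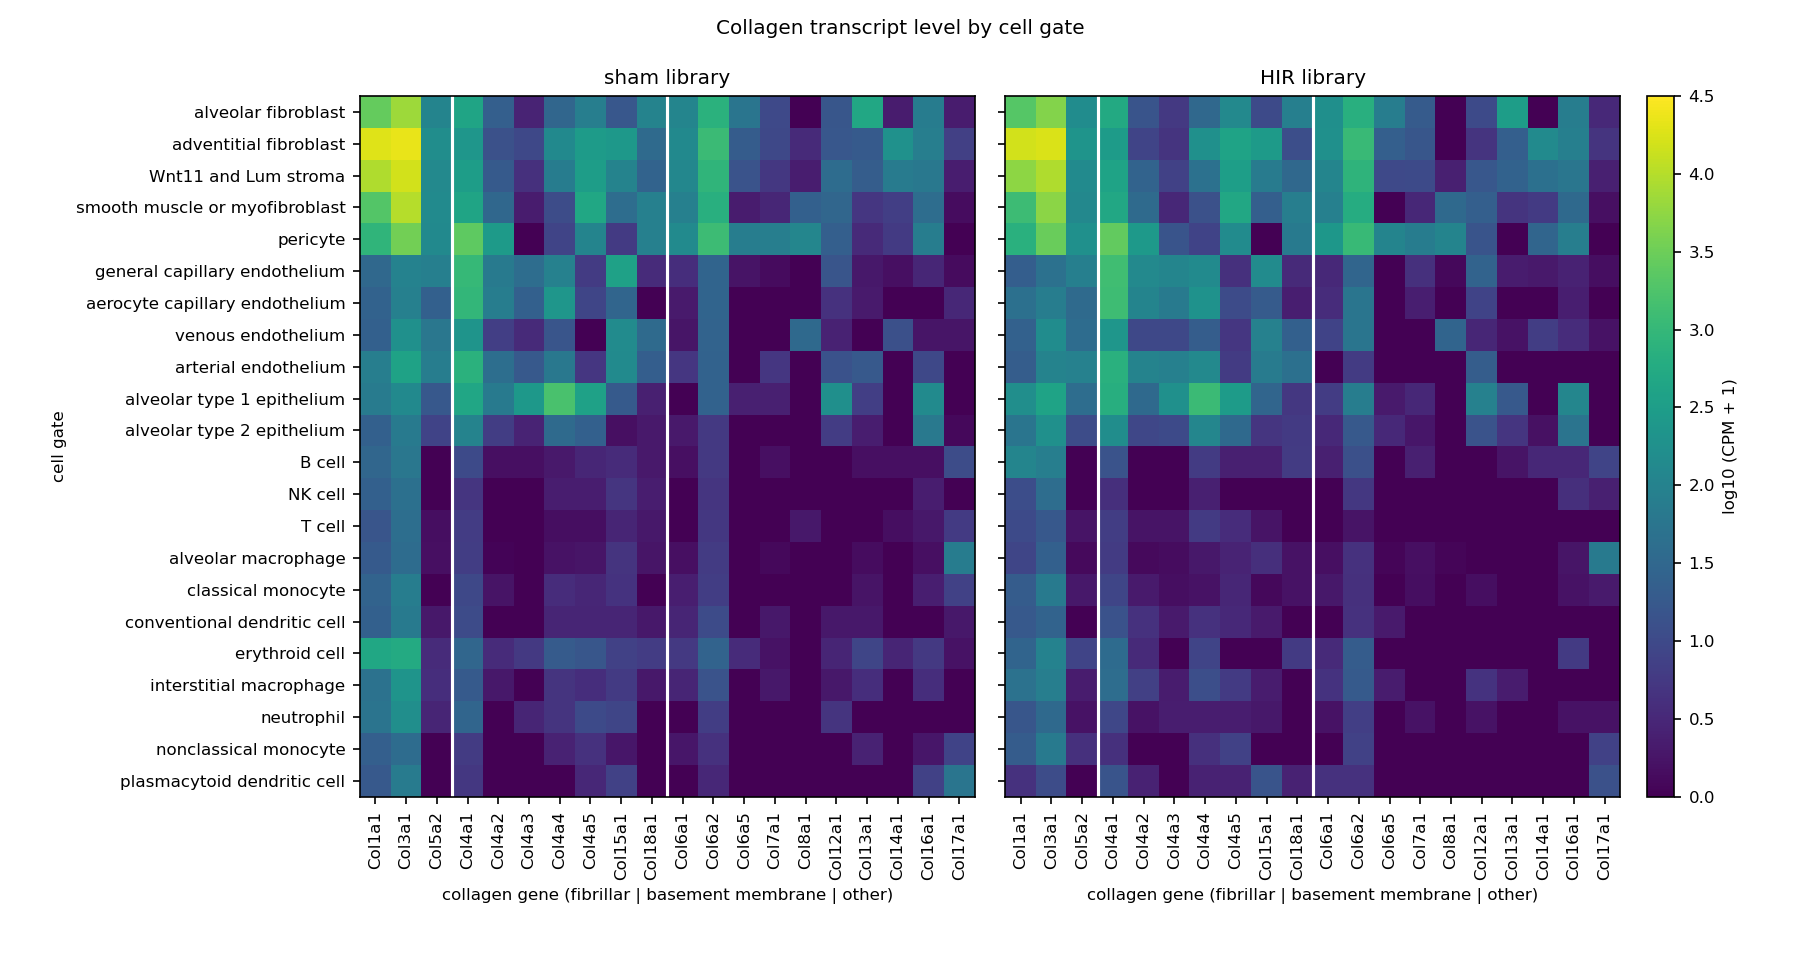
Level of collagen genes with at least 50 CPM in any gate (columns, split into fibrillar, basement membrane and other) in 22 gates (rows) for the sham and HIR libraries, as log10 of CPM plus 1. Col1a1 and Col3a1 are brightest in the fibroblast and smooth muscle rows, Col4a1 in pericytes and endothelium, Col4a4 in alveolar type 1 cells and Col17a1 in alveolar macrophages.

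Over all cells collagen made up 0.475% of UMIs in sham and 0.272% in HIR, a value that also moves with how many stromal cells each library held. Within gates, the collagen share was lower in HIR in 4 of the 5 stromal gates with an interval that left out 1. In the Wnt11 and Lum stroma it was 2.72% in sham and 1.69% in HIR (ratio 0.622, 95% interval 0.615 to 0.629). In the smooth muscle or myofibroblast gate it was 1.40% and 0.864% (0.618, 0.607 to 0.630). Alveolar fibroblasts gave 1.22% and 0.911% (0.745, 0.720 to 0.771) and adventitial fibroblasts 4.44% and 3.65% (0.821, 0.803 to 0.840). For pericytes, at 0.925% and 0.881%, the interval held 1 (0.952, 0.892 to 1.01). Capillary cells went the other way, with 0.191% and 0.210% in general capillary cells (1.10, 1.07 to 1.13), though 0.990 with doublets kept, and 0.151% and 0.190% in aerocytes, the large capillary cells of the gas exchange surface (1.26, 1.16 to 1.35).

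Single cells gave a like picture. The median cell of the Wnt11 and Lum stroma spent 1.47% of its UMIs on collagen in sham and 0.805% in HIR. Medians were 1.497% and 0.824% in the smooth muscle or myofibroblast gate, 1.11% and 0.730% in alveolar fibroblasts, and 3.59% and 2.85% in adventitial fibroblasts. The ranges of single cells overlapped between libraries in each of these gates. In pericytes the medians, 0.895% and 0.925%, lay the other way from the summed share, and general capillary cells 0.165% and 0.184%.

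**Figure D2:**
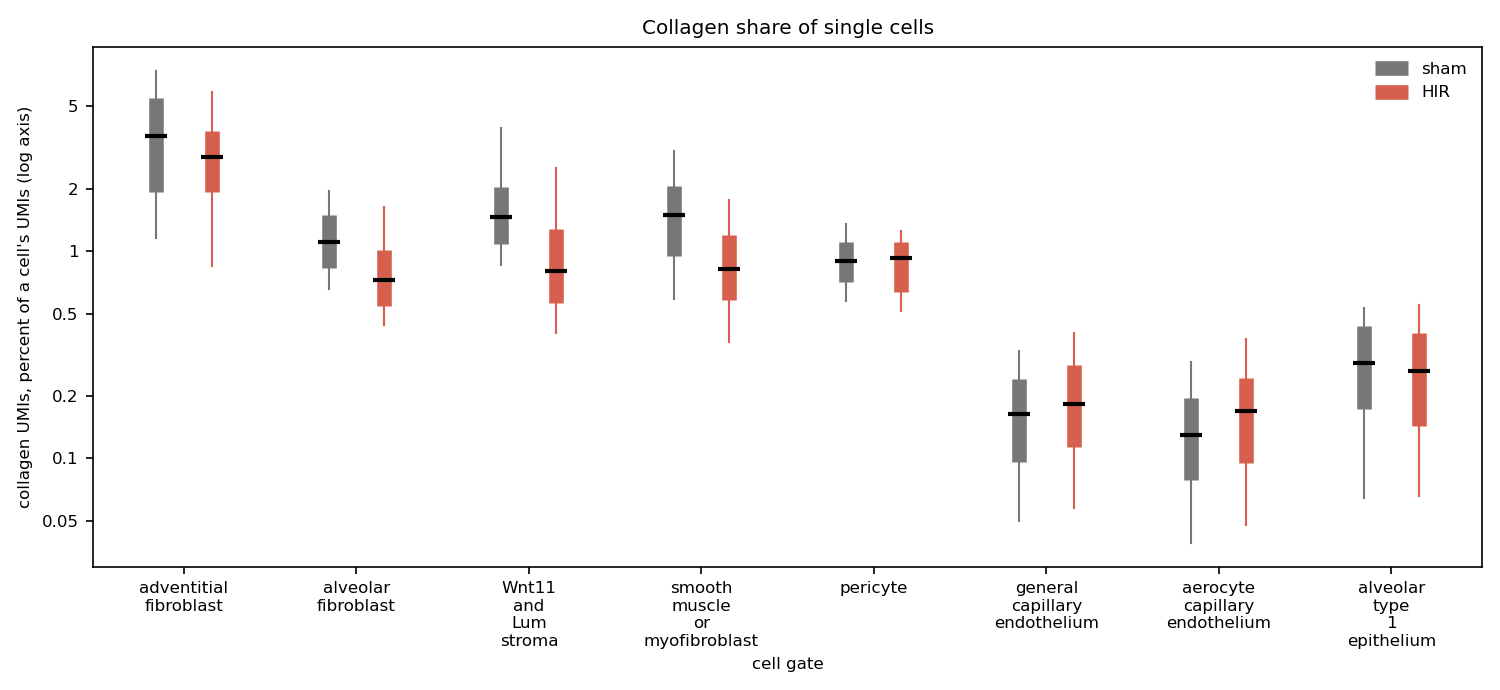
Collagen UMIs as a percent of each cell's UMIs (log axis) in 8 gates, sham in grey and HIR in red. Thin lines run from the 10th to the 90th percentile of cells, bars from the 25th to the 75th, and black marks are medians. The HIR medians lie lower in both fibroblast gates, the Wnt11 and Lum stroma (0.805% against 1.47%) and smooth muscle, and higher in both capillary gates.

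Fibrillar chains carried the difference in stroma: they made up 2.51% of the UMIs of the Wnt11 and Lum stroma in sham and 1.49% in HIR, against 0.0884% and 0.0946% for basement membrane chains. Col3a1 (ENSRNOG00000003357), the chain of type III collagen, was at 15736 CPM in sham and 9195 CPM in HIR in the Wnt11 and Lum stroma (0.584, 0.576 to 0.593). In the smooth muscle or myofibroblast gate it was at 9883 and 5285 CPM (0.535, 0.522 to 0.548), and in alveolar fibroblasts at 7059.9 and 4699 CPM (0.666, 0.634 to 0.698). Adventitial fibroblasts had the most, with 22338 and 17604 CPM (0.788, 0.763 to 0.814), and pericytes 3532 and 3021 CPM (0.855, 0.767 to 0.953). Col3a1 was thus lower in HIR in all 5 stromal gates, by an amount that differed between them.

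Col1a1 (ENSRNOG00000003897), a chain of type I collagen, followed. It was at 9211 CPM in sham and 5515 CPM in HIR in the Wnt11 and Lum stroma (0.599, 0.587 to 0.611), and at 1939.8 and 1235 CPM in the smooth muscle or myofibroblast gate (0.637, 0.605 to 0.669). Alveolar fibroblasts had 2782 and 2029 CPM (0.729, 0.677 to 0.784) and adventitial fibroblasts a ratio of 0.821 (0.794 to 0.850). In pericytes the interval held 1 (0.814, 0.648 to 1.01). The 2 genes were used in a proportion that marked the gate more than the library: there were 0.861 Col1a1 UMIs for each Col3a1 UMI in sham adventitial fibroblasts and 0.897 in HIR, against 0.196 and 0.234 in the smooth muscle or myofibroblast gate.

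Type V chains, which sit inside the fibrils of type I and set their width, did not share one direction. Col5a2 was at 107 CPM in sham and 154 CPM in HIR alveolar fibroblasts (1.44, 1.07 to 1.92). In the Wnt11 and Lum stroma, at 129 and 143 CPM, its interval held 1 (1.11, 0.962 to 1.27). Col5a1 in that stroma was lower in HIR, at 38.8 and 22.1 CPM (0.569, 0.411 to 0.779). The other fibrillar genes were too low to compare in most gates.

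Few cells can carry a summed value. In alveolar fibroblasts 5 of 96 HIR cells held 24.4% of Col1a1 UMIs and 19.1% of Col3a1 UMIs, and 5 of 333 sham cells 8.58% and 4.46%. With unequal cell numbers these shares cannot be compared directly. Clusters built without collagen genes gave a second view of the gates. Within the 3 clusters that held enough cells of the Wnt11 and Lum stroma the collagen share ratio was 0.669, 0.489 and 0.700, and in alveolar fibroblasts of their main cluster it was 0.714. The smooth muscle or myofibroblast gate was not uniform: 2 clusters gave 0.494 and 0.588, but in a cluster that also held 105 sham pericytes the ratio was 0.955 (0.918 to 0.994) and that of Col3a1 0.989 (0.927 to 1.05), over 91 sham and 79 HIR cells.

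Counts set these sizes against all genes. A gene was compared in a gate where it had 20 CPM or more in 1 of the libraries and 50 UMIs over both, and was counted as over 2-fold apart when its interval also left out 1. In the Wnt11 and Lum stroma 10 of 16 collagen genes compared were lower in HIR and 6 higher, beside 47.9% of all genes compared that were lower, and 1 was over 2-fold lower, where 2.06% of all genes compared were over 2-fold lower and 2.4% over 2-fold higher. No collagen gene was over 2-fold apart among 12 in alveolar fibroblasts (5.17% of all genes lower, 4.82% higher), 11 in adventitial fibroblasts (4.68% and 3.63%), 14 in the smooth muscle or myofibroblast gate (1.29% and 1.86%) or 9 in pericytes (3.22% and 1.56%). The median log2 ratio, taken after adding 10 CPM, was -0.67 for 4 fibrillar and 0.15 for 6 basement membrane genes in the Wnt11 and Lum stroma, beside 0.02 for all genes compared there. In the smooth muscle or myofibroblast gate these medians were -0.65 for 3 fibrillar and 0.08 for 6 basement membrane genes, beside 0.02. In alveolar fibroblasts they were -0.45 for 3 and 0.20 for 4, beside 0.00.

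**Figure D3:**
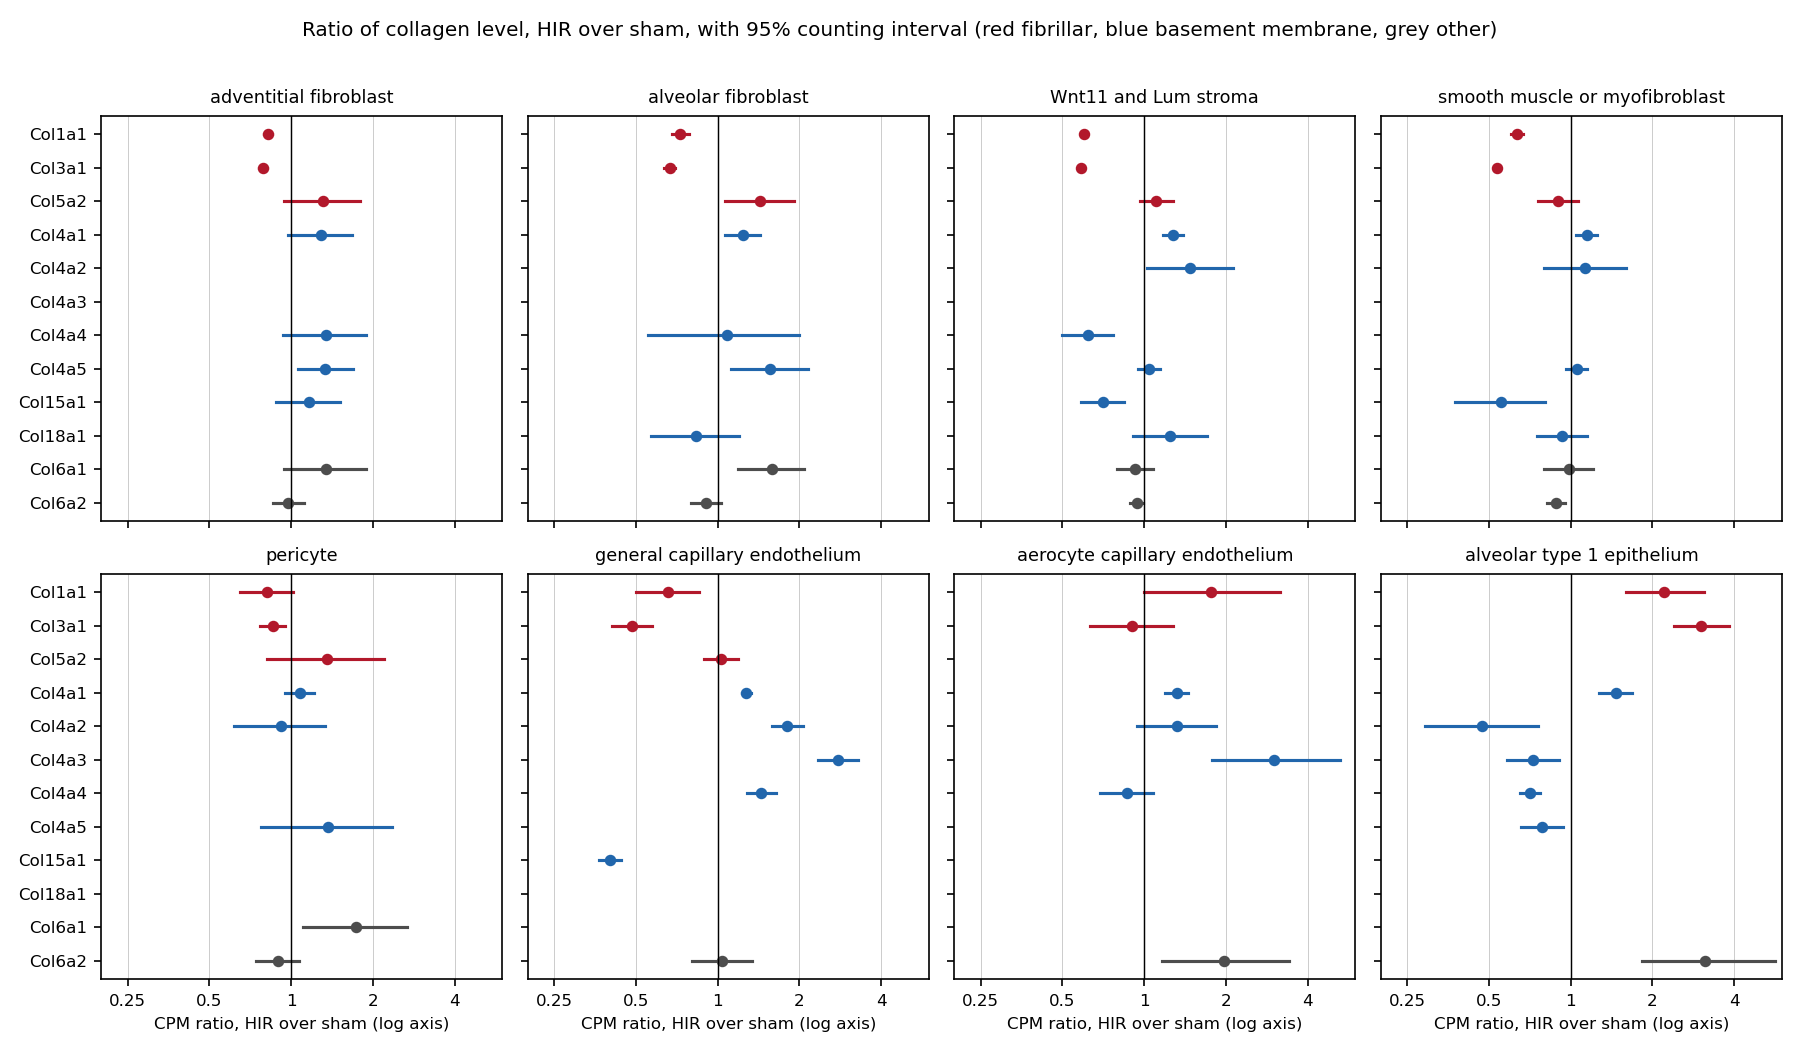
Ratio of CPM in HIR over sham (points, log axis) with exact 95% counting intervals (lines) for 12 collagen genes in 8 gates, fibrillar in red, basement membrane in blue and type VI in grey. Only genes with enough counts in a gate are drawn. Col1a1 and Col3a1 lie left of 1 in the 5 stromal gates, Col4a1 lies right of 1 in all 8, though its interval holds 1 in adventitial fibroblasts and pericytes, and Col15a1 lies at 0.402 in general capillary endothelium.

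The summed basement membrane share was higher in HIR in both fibroblast gates, the Wnt11 and Lum stroma and the smooth muscle or myofibroblast gate. Fibrillar chains were lower there, and basement membrane ratios ran from 1.07 in the smooth muscle or myofibroblast gate to 1.23 in adventitial fibroblasts. General capillary cells also had a lower fibrillar share (0.721) and a higher basement membrane share (1.14). Fibrillar shares were lower too in pericytes (0.860) and venous endothelium (0.833). In these 2 gates the ratios of summed basement membrane chains had intervals that held 1 (1.07, 0.954 to 1.19, and 0.929, 0.822 to 1.05). By gene, and over few genes, 4 of 6 were higher in the Wnt11 and Lum stroma (52.1% of all genes) and in the smooth muscle or myofibroblast gate (53.4%), 3 of 4 in alveolar fibroblasts (49.9%) and 4 of 4 in adventitial fibroblasts (44.5%). Col4a1, the most abundant type IV chain, was at 321 CPM in sham and 411 CPM in HIR in the Wnt11 and Lum stroma (1.28, 1.18 to 1.40) and at 431 and 533 CPM in alveolar fibroblasts (1.24, 1.06 to 1.44). It was highest in pericytes, which share the capillary sheet with endothelium, at 2432 and 2618 CPM, where the interval held 1 (1.08, 0.954 to 1.21). General capillary cells had 1050.4 and 1339 CPM (1.28, 1.23 to 1.32) and aerocytes 953 and 1255 CPM (1.32, 1.20 to 1.45). Venous endothelium had less, at 212 and 228 CPM (1.08, 0.912 to 1.27). In B cells Col4a1 was at 9.25 CPM in sham and 12.98 CPM in HIR. Other immune and blood gates differed, with 5.35 and 5.60 CPM in T cells, 28.3 and 7.96 CPM in neutrophils and 30.1 and 36.6 CPM in erythroid cells. The part of free RNA in these levels was not tested. Col4a2, the partner of Col4a1, had fewer UMIs, at 70.6 and 128 CPM in general capillary cells (1.81, 1.58 to 2.07).

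The alveolar type IV chains differed between cell types. Col4a3 was at 39.6 CPM in sham and 110 CPM in HIR general capillary cells (2.77, 2.35 to 3.27) and at 23.3 and 70.1 CPM in aerocytes (3.01, 1.78 to 5.28). It was over 2-fold higher in each of 3 clusters of the general capillary gate, with ratios of 2.26, 3.25 and 3.62. A Col4a3 UMI was found in 12.5% of sham and 24.3% of HIR general capillary cells, and in 4.02% and 9.32% once each cell was thinned to 1000 UMIs. Of B cells, 0.134% of 749 in sham had one, and 0 of 498 in HIR. Median depths were 2865 and 2612.5 UMIs in general capillary cells and 2170.0 and 2492.5 in B cells.

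In the Wnt11 and Lum stroma Col4a4 was lower in HIR, at 76.3 and 47.4 CPM (0.621, 0.498 to 0.771). Col4a4 was at 95.6 and 139 CPM in general capillary cells (1.45, 1.28 to 1.64), but in aerocytes at 226 and 195 CPM the interval held 1 (0.862, 0.690 to 1.08). There were thus 0.415 Col4a3 UMIs for each Col4a4 UMI in sham general capillary cells and 0.792 in HIR, and 0.103 and 0.360 in aerocytes. Alveolar type 1 cells, the thin epithelium of the alveolus, had the highest Col4a4 level, and there the proportion was 0.155 in sham and 0.159 in HIR. Markers of alveolar type 1 cells, some of which endothelium also expresses, had a median share of 0.295% in sham and 0.346% in HIR general capillary cells, and their part in the Col4a3 values was not tested.

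Col15a1, which links the endothelial sheet to the fibrils below, went the opposite way. It was at 370.4 CPM in sham and 149 CPM in HIR general capillary cells (0.402, 0.366 to 0.440), with ratios of 0.341, 0.450 and 0.527 in their 3 clusters. A Col15a1 UMI was found in 53.9% of sham and 30.8% of HIR cells of that gate, in 26.4% and 12.4% after thinning, and in 0.668% and 0.402% of B cells. In venous endothelium it was at 146 and 94.1 CPM (0.646, 0.512 to 0.812), but 60.8% of its sham UMIs and 41.9% of its HIR UMIs lay in 5 cells of each library, and without them the levels were 62.4 and 61.0 CPM (0.979, 0.700 to 1.37). It was lower in the Wnt11 and Lum stroma, at 104 and 73.1 CPM (0.704, 0.588 to 0.842). In adventitial fibroblasts, at 248 and 288 CPM, the interval held 1 (1.16, 0.883 to 1.52). The related Col18a1, which is cut to release endostatin, stayed under 110 CPM in stroma, and its interval held 1 in the gates drawn.

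Of fibrillar genes, Col5a2 was also detected in endothelium: it was at 85.1 CPM in sham and 87.6 CPM in HIR general capillary cells (1.03, 0.893 to 1.18) and at 60.4 and 38.0 CPM in venous cells (0.629, 0.435 to 0.906), with no UMI in B cells of either library. Col3a1 was nearer to the level of B cells in capillary cells. General capillary cells had 96.9 and 47.0 CPM of Col3a1 (0.486, 0.409 to 0.574), beside 60.1 and 81.5 CPM in B cells. In HIR B cells, however, 5 cells held 69.0% of the Col3a1 UMIs, against 21.4% in sham. Summed pericyte markers in general capillary cells were at 108 CPM in sham and 35.3 CPM in HIR. There 5 of 1409 sham cells held 37.9% of the Col3a1 UMIs, and without the 5 richest cells of each library the ratio was 0.606 (0.496 to 0.737), no longer over 2-fold. In that gate 2 of 10 collagen genes compared were over 2-fold lower, Col3a1 and Col15a1, and 1 was over 2-fold higher, Col4a3, beside 1.32% of all genes in each direction. Col3a1 was also lower in HIR arterial endothelium, at 383 and 99.997 CPM over 91 and 20 UMIs (0.261, 0.152 to 0.427), where 5 cells held 94.5% of the sham UMIs. In aerocytes 1 of 7 was over 2-fold higher, Col4a3 (2.18% of all genes), and none was over 2-fold lower (1.26%).

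Among the other collagens, Col6a2 of type VI was abundant in stroma and differed little between libraries. It was at 883 CPM in sham and 829.6 CPM in HIR in the Wnt11 and Lum stroma (0.940, 0.889 to 0.993) and at 1197 and 1069.5 CPM in pericytes (0.894, 0.741 to 1.07). Col6a1 was higher in HIR in alveolar fibroblasts, at 111 and 175 CPM (1.58, 1.19 to 2.08), and in pericytes, at 140.2 and 243 CPM over 58 and 35 UMIs (1.73, 1.11 to 2.68). In venous endothelium Col6a2 was at 26.5 and 54.6 CPM (2.06, 1.35 to 3.22), the 1 gene of 8 over 2-fold higher there, beside 2.24% of all genes, and none was over 2-fold lower (2.73%).

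Some transmembrane and fibril-binding collagens were lower in HIR in a stromal gate. Col13a1, a transmembrane collagen, was at 494 CPM in sham and 320.2 CPM in HIR alveolar fibroblasts (0.648, 0.537 to 0.777), while other stromal gates had under 30 CPM. Col14a1, which coats fibrils, was at 74.8 and 45.6 CPM in the Wnt11 and Lum stroma (0.610, 0.487 to 0.760). Col12a1, of the same family, was at 37.2 and 15.9 CPM there (0.428, 0.295 to 0.609) and is the gene counted above as over 2-fold lower. Col16a1, also fibril-binding, was at 61.5 and 57.9 CPM there (0.941, 0.759 to 1.17), and its interval held 1 in both fibroblast gates too. In general capillary cells Col12a1 was higher, at 14.7 and 26.4 CPM (1.80, 1.33 to 2.43).

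Col17a1, a transmembrane collagen known from the hemidesmosomes of skin and airway epithelium, was highest in alveolar macrophages among the 22 gates. These gates hold no airway epithelium. Club cells numbered 19 in sham and 18 in HIR and ciliated cells 17 and 7, under the 30 cells needed. The Col17a1 level in alveolar macrophages was 77.1 CPM in sham and 70.5 CPM in HIR, and the interval of the ratio held 1 (0.915, 0.811 to 1.03). A UMI was found in 65.5% of 414 sham and 65.1% of 361 HIR macrophages, at median depths of 18504 and 20240.0 UMIs, and in 6.85% and 7.24% after thinning to 1000 UMIs. General capillary cells had one in 0.142% and 0.169%, and B cells in 2.67% and 2.01%, or 0.978% and 1.22% after thinning.

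In alveolar type 1 cells basement membrane chains gave most collagen UMIs, 1899 of 2320 in sham and 2193 of 3078 in HIR. In alveolar type 2 cells they gave 661 of 1372 and 1184 of 2409. Col4a4 in alveolar type 1 cells was at 1619 CPM in sham and 1149 CPM in HIR (0.710, 0.652 to 0.773), and Col4a3 at 251 and 182 CPM (0.726, 0.584 to 0.903). Col4a5 was at 369 and 289 CPM (0.783, 0.657 to 0.934), while Col4a1 was higher, at 451 and 660.0 CPM (1.46, 1.27 to 1.68). The gate's own markers summed to 50579 CPM in sham and 33649 CPM in HIR, those of general capillary cells to 699 and 1803 CPM, and 5.77% of sham and 15.8% of HIR cells lay near a border. Their part in these values was not tested. With Leiden clusters in place of gates the ratios of Col4a3, Col4a4 and Col4a5 turned to 1.16, 1.15 and 1.12, so their direction depended on how cells were grouped. In alveolar type 2 cells, which make surfactant, Col4a4 was at 35.2 and 115 CPM (3.26, 2.68 to 3.98), with a UMI in 20.5% and 38.1% of cells and in 3.24% and 7.35% after thinning. There 5 cells held 43.1% of its sham UMIs and 41.1% of its HIR UMIs. Of all genes compared in that gate, 71.4% were not lower in HIR.

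Fibrillar transcripts in epithelium and B cells were concentrated in few cells. Col3a1 was higher in HIR alveolar type 2 cells, at 69.3 and 182 CPM (2.63, 2.28 to 3.04), but 5 cells held 77.3% of those HIR UMIs, and with doublets kept the ratio was 0.582. In alveolar type 1 cells its ratio was 3.02 (2.40 to 3.83), 5 cells held 63.2% of the HIR UMIs, and the ratio was 0.635 with doublets kept and 0.543 with clusters. Summed markers of the Wnt11 and Lum stroma in that gate were at 107 and 171 CPM, and their part in these values was not tested. In HIR B cells 5 cells held 89.5% of Col1a1 UMIs, and without the 5 cells with the most in each library the ratio was 0.459 in place of 3.74. In myeloid and erythroid gates, Col3a1 was at 164 CPM in sham and 33.4 CPM in HIR neutrophils, at 215 and 81.9 CPM in interstitial macrophages and at 560.5 and 97.6 CPM in erythroid cells, and Col1a1 in erythroid cells was at 472 and 26.9 CPM. In sham erythroid cells 5 of 179 cells held 95.7% of Col1a1 UMIs and 83.8% of Col3a1 UMIs. For Col3a1, 5 of 267 sham neutrophils held 67.8% of the UMIs and 5 of 1248 HIR neutrophils 15.2%. In interstitial macrophages 5 cells held 64.5% in sham and 30.9% in HIR. Of 10 collagen genes compared in alveolar type 1 cells, Col4a2 was over 2-fold lower (1 gene, 2.05% of all genes) and 3 were over 2-fold higher, Col1a1, Col3a1 and Col6a2 (8.11%). In alveolar type 2 cells 3 of 6 were over 2-fold higher, Col1a1, Col3a1 and Col4a4 (4.3%), and none over 2-fold lower (0.655%).

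The genes that fold and finish collagen were mostly lower in stroma too. Of 18 genes for folding and modification found in the files, 13 were compared in the Wnt11 and Lum stroma and 13 were lower in HIR (47.9% of all genes), 2 of them over 2-fold (2.06%). The counts lower were 11 of 13 in alveolar fibroblasts (50.1% of all genes), 12 of 13 in adventitial fibroblasts (55.5%) and 11 of 13 in the smooth muscle or myofibroblast gate (46.6%), with median log2 ratios from -0.47 to -0.27 over the 4 gates. Serpinh1, the chaperone of the triple helix, was at 702 CPM in sham and 306 CPM in HIR in the Wnt11 and Lum stroma (0.436, 0.402 to 0.472). It was at 654 and 248 CPM in alveolar fibroblasts (0.379, 0.307 to 0.463) and at 493 and 206 CPM in the smooth muscle or myofibroblast gate (0.417, 0.370 to 0.468). It was lower in general capillary cells as well, at 682 and 411 CPM (0.603, 0.569 to 0.639), where Col4a1 was higher. P4ha1, a subunit of prolyl hydroxylase, was at 129 and 63.6 CPM in adventitial fibroblasts (0.492, 0.276 to 0.825). Plod2, which hydroxylates lysines for cross-links, was at 84.2 and 39.4 CPM in the Wnt11 and Lum stroma (0.468, 0.371 to 0.587).

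Enzymes that act on collagen outside the cell split. Pcolce, which speeds the trimming of procollagen, was at 334 and 152 CPM in the Wnt11 and Lum stroma (0.456, 0.406 to 0.511). Loxl1, a cross-linking oxidase, was at 438 and 74.8 CPM in alveolar fibroblasts (0.171, 0.116 to 0.243) and at 297 and 126 CPM in the Wnt11 and Lum stroma (0.424, 0.374 to 0.480). Lox, the related oxidase, was higher: at 298 and 1129 CPM in alveolar fibroblasts (3.79, 3.33 to 4.30), 442 and 673 CPM in adventitial fibroblasts (1.52, 1.27 to 1.83) and 169.7 and 246 CPM in the Wnt11 and Lum stroma (1.45, 1.29 to 1.63). In the main cluster of alveolar fibroblasts Lox had a ratio of 4.07 and Loxl1 of 0.142. Of the other basement membrane proteins, such as laminins and nidogens, 5 of 7 compared were higher in HIR in the Wnt11 and Lum stroma (52.1% of all genes) and 3 of 6 in alveolar fibroblasts (49.9%), none of them over 2-fold. Of collagen receptors, 1 of 4 in the Wnt11 and Lum stroma was over 2-fold lower (2.06% of all genes), Itga11, a subunit of a receptor for fibrillar collagen, at 20.8 and 10.1 CPM (0.487, 0.301 to 0.768).

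**Figure D4:**
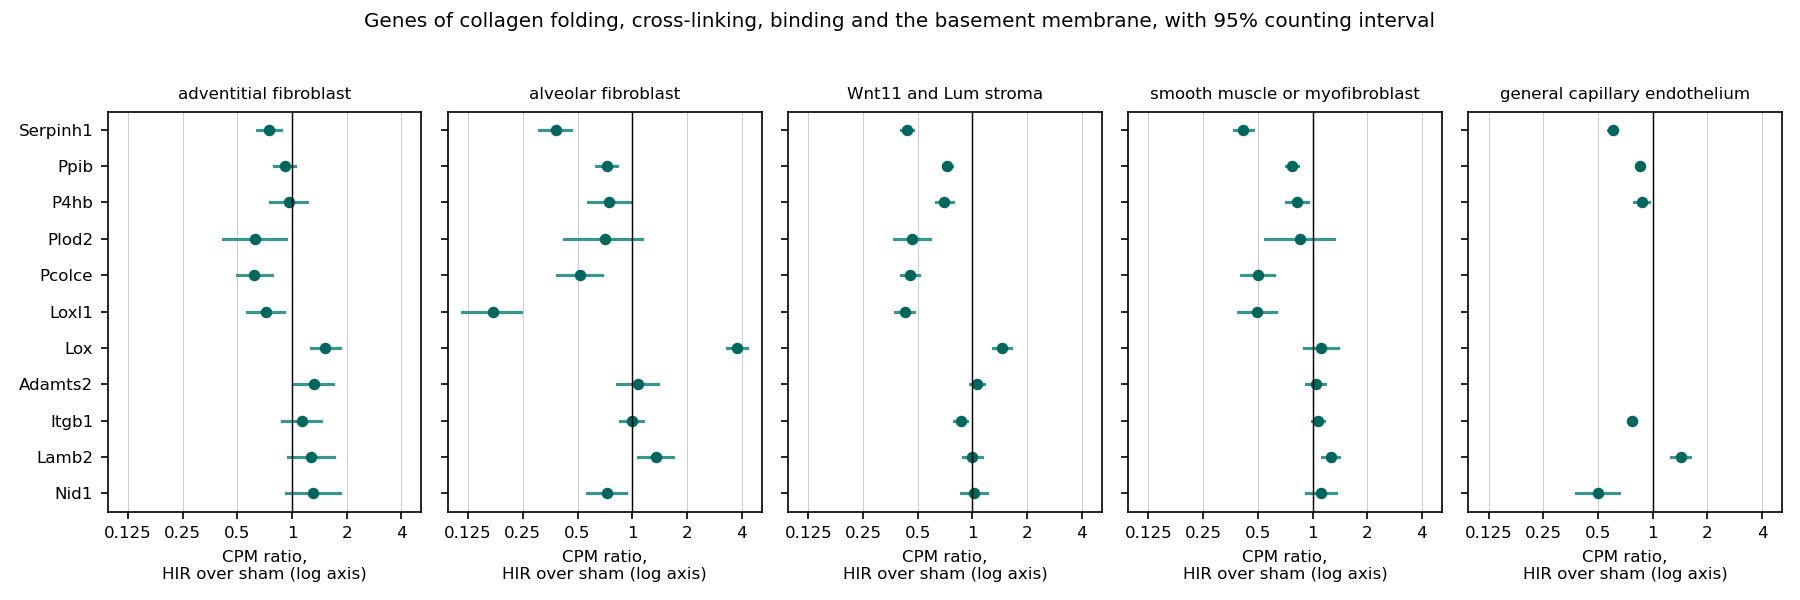
Ratio of CPM in HIR over sham (points, log axis) with exact 95% counting intervals (lines) for 11 genes of collagen folding, processing, binding and the basement membrane in 5 gates, drawn after their values were seen. Serpinh1 lies left of 1 in all 5 gates, and Lox and Loxl1 lie on opposite sides of 1 in both fibroblast gates and the Wnt11 and Lum stroma.

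Across 22 gates of both libraries, the pattern of a collagen gene was compared with every other gene by Pearson correlation of log2 levels over 44 values, which share libraries and depth and are not independent. The gene most like Col1a1 was Col3a1 (0.976), followed by Mfap5 (0.973), a microfibril protein, and the unnamed NEWGENE_621351 (0.963). Col3a1 was followed by Fxyd1 and Ltbp3, each at 0.965. Col4a1 was most like Fermt2 (0.978), a partner of integrins, then Dennd2b (0.960) and Lats2 (0.951). Col6a1 was most like Rarres2 (0.983), then Lamb1 and, at 0.970, Pcolce. Col4a3 was most like Col4a4 (0.864), its partner in the alveolar network, then Efna1 (0.852) and Clic5 (0.837), the last a marker of alveolar type 1 cells used in gating.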

How the data were processed

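The deposited matrices hold UMI counts per gene and barcode. Per the submitters' processing notes the authors used Cell Ranger 6.0, STAR, Seurat 4.0 and mm10, while the file headers name cellranger 5.0.0. The lowest barcode had 500 UMIs. Cells needed 200 genes and no more than 20% mitochondrial UMIs, and Scrublet doublets (scanpy 1.11.5; 919 and 722, at 0.8% per 1000 barcodes) were left out, which left 8571 sham and 7921 HIR cells. A cell joined the gate with the highest scaled marker score (at least 0.2, at least 0.03 above the next and 3 markers detected), and 22 gates had 30 cells in each library; 1174 sham and 1002 HIR cells joined none. Gate thresholds were set after gate sizes were seen. "Near a border" means a margin under 0.1.

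Counts were summed per gate and library. Ratios have exact conditional binomial intervals. Their check on simulated data drew independent counts, as the interval assumes, so it cannot show how they hold where few cells carry the UMIs. All intervals cover counting error only. Named genes are those over 2-fold apart and the 3 highest with at least 100 CPM and 50 UMIs; others were added after their values were seen. The members, gene lists and markers were chosen with earlier results of these data known. Alternatives were Leiden clusters (igraph 0.11.9) built without collagens, other filters and margins, doublets kept, cell means, thinning to 1000 UMIs, B cell background subtracted and another pseudocount.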

Additional observations from a re-analysis of the deposited data

Results flagged for a closer look

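Some genes differed between libraries in opposite directions in different gates, and the difference between gates was not tested. Col3a1 had a ratio of HIR over sham of 0.584 in the Wnt11 and Lum stroma and 2.63 in alveolar type 2 cells, where 5 cells held most of the HIR UMIs. Col4a3 had a ratio of 2.77 in general capillary endothelium and 0.726 in alveolar type 1 cells, and the latter was 1.16 with clusters. Col4a2 had a ratio of 1.81 in general capillary endothelium and 0.472 in alveolar type 1 cells, the latter over 48 sham and 31 HIR UMIs.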

How the results depend on the processing

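No paired analysis was possible because each group has 1 library. The alternatives gave 330 values for 42 gene and gate pairs. The genes were Col1a1, Col3a1, Col4a1, Col4a2, Col4a3, Col4a4, Col4a5, Col6a1, Col6a2, Col12a1, Col13a1 and Col15a1, each in some gates only. Other collagen values named were not part of this set. Of the 330 values, 261 lay within the main interval and 15 turned round, which was counted only where the main interval left out 1. The other 315 did not turn round in this sense. Where the main interval held 1, a value could cross 1 without being counted. With clusters in place of gates the turned ratios were 0.884 for Col1a1, 0.543 for Col3a1, 1.16 for Col4a3, 1.15 for Col4a4 and 1.12 for Col4a5 in alveolar type 1 cells, and 0.555 for Col1a1 in B cells. With doublets kept they were 0.486 for Col1a1, 0.635 for Col3a1, 1.02 for Col4a4 and 1.02 for Col4a5 in alveolar type 1 cells, and 0.594 for Col1a1 and 0.582 for Col3a1 in alveolar type 2 cells. Col1a1 in B cells was 0.475 with a wider margin, 0.524 with no filter and 0.459 without the 5 richest cells. The cause was not tested. The share of collagen kept its direction in the 4 stromal gates with each alternative that gave a value. No cluster was assigned to adventitial fibroblasts, so clusters in place of gates gave no share there. In alveolar fibroblasts (0.745) it was 0.801 with clusters, 0.801 with doublets kept, 0.717 as a cell mean, 0.716 thinned and 0.714 within cluster 26. In adventitial fibroblasts (0.821) it was 0.840 with stricter filters, 0.875 with doublets kept and 0.842 within cluster 27. In the Wnt11 and Lum stroma (0.622) it was 0.611 with clusters, 0.592 with a wider margin, 0.641 with stricter filters, 0.635 with doublets kept, 0.600 as a cell mean, 0.602 thinned, and 0.669, 0.489 and 0.700 within clusters 7, 15 and 27. In the smooth muscle or myofibroblast gate (0.618) it was 0.584 with clusters, 0.734 with stricter filters, 0.568 as a cell mean, 0.606 with background subtracted, 0.575 thinned, and 0.955, 0.494 and 0.588 within clusters 11, 15 and 16. In general capillary endothelium (1.10) it was 1.14 with clusters, 1.18 as a cell mean, 1.04 with background subtracted, 1.16 thinned, 1.04 and 1.26 within clusters 1 and 6, and turned to 0.990 with doublets kept. The median log2 ratio over all collagen genes compared lay near 0 and was less stable. It was 0.07 in alveolar fibroblasts, -0.18 with doublets kept and -0.084 over every gene with a UMI. In adventitial fibroblasts it was 0.21, 0.085 with a wider margin and -0.16 over every gene with a UMI. It was -0.10 and, with a wider margin, -0.23 in the Wnt11 and Lum stroma. Over every gene with a UMI it was -0.0097 in the smooth muscle or myofibroblast gate (-0.12) and 0.0044 in general capillary endothelium (0.19), where clusters gave 0.38. Within-cluster values and those without the 5 richest cells were chosen after seeing the data.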
